A study of Mus musculus with 6 samples.

Results

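The genes described here are 47 genes of DNA replication, mitosis and cell cycle control, of 46983 gene identifiers in the deposited table. They were listed by name from knowledge of the cell cycle: 21 genes of S phase and its onset, 22 genes of mitosis, and 4 genes of G1 control. All 47 symbols were found once each through the GENCODE mouse release 21 annotation, and all 47 passed the filter on low counts. The RNA came from bone marrow derived macrophages, cells grown in culture from marrow precursors. Femur marrow of C57BL/6 mice was grown for 7 days in medium with 20% L929 conditioned medium, a source of the macrophage growth factor CSF1, and 10% heat-inactivated serum. The 2 groups were wild-type (WT) and AEG-1 knockout, called knockout in the text and AEG-1 KO in the plots, with 3 libraries each and no treatment in either. Mtdh is the gene that encodes AEG-1. No label states the age or sex of the mice, which part of Mtdh was deleted, or whether a genotype's libraries came from separate animals. P-values therefore reflect only how far these libraries vary, and that variation may be technical.

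A cell that divides first commits in G1, when D-type cyclins and their kinases release E2F transcription factors from the retinoblastoma protein. E2F factors switch on the S phase genes, whose products license origins, make deoxynucleotides and copy DNA. A later wave of genes, held down in resting cells by the DREAM complex and driven by B-MYB and FOXM1, builds the spindle, the kinetochores and the machinery of cytokinesis. Marrow precursors divide in response to CSF1, and division slows as macrophages mature. These RNAs are therefore used as a readout of how many cells of a culture are cycling. In bulk RNA a lower share of cycling cells and less RNA per cycling cell cannot be told apart.

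The targeted gene matched the labels in all 6 libraries. Reads of Mtdh numbered 11560, 14849 and 11806 in the WT libraries, in order of replicate, against 15, 22 and 15 in the knockout libraries. Library totals lay between 42548170 and 58947230 counts. The members had a median of 539 reads per library, with a lowest value of 122 reads.

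The S phase and mitosis members differ in the letters of their promoters, a feature that played no part in listing them. RefSeq promoter sequences (build GRCm38.p6, 250 bases before and 50 after the start) were at hand for 36 of the 47 members. The RefSeq start lay 539 bases from the start of the GENCODE principal transcript in Mcm7 and 466 in E2f1, whose windows do not cover the latter start. The distance was 138 bases in Lig1, 134 in Pcna and 109 in Cenpa. The members with no entry were Mcm4, Gins1, Gins2, Pole, Ccne2, Ccna2, Aurkb, Kif20a, Tpx2, Ccnd1 and Ccnd2. E2F letters were searched as TTTGGCGC, TTTCGCGC, TTCCCGCC and TTTCCCGC, the last pair of which overlap each other. The cell cycle homology region (CHR), the DNA element that DREAM and B-MYB complexes contact, was searched as TTTGAA and TTCGAA, and the NF-Y element as CCAAT, each on both strands. E2F letters were in 9 of 16 S phase promoters (56.2%) and in 1 of 18 mitosis promoters (5.6%), against 6.7% of the 9775 promoters of tested protein-coding genes. CHR letters were in 2 of 16 S phase promoters (12.5%) and in 14 of 18 mitosis promoters (77.8%), against 13.7% of all. CCAAT was in 62.5% of S phase and 88.9% of mitosis promoters, against 38.7% of all. A match of letters is a description and does not show that a factor binds there.

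5 promoters are printed to show both patterns, as 180 bases each on the strand of the gene, from 150 bases before the annotated start, with every matched E2F, CHR or CCAAT stretch in capitals. Mcm6 and Rrm1 show the S phase pattern, Ccnb2 the mitosis pattern, Cdk1 both, and Cenpa is the member that differed between the genotypes.
Mcm6, chr1:128359676-128359855, minus strand: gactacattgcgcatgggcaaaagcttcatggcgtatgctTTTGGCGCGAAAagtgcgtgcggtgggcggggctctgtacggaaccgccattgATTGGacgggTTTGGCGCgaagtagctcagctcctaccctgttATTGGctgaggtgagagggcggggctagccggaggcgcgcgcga
Rrm1, chr7:102441545-102441724, plus strand: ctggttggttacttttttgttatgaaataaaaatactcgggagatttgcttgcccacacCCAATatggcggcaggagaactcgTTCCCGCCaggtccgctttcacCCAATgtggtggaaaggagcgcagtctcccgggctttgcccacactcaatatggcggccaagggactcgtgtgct
Cdk1, chr10:69352883-69353062, minus strand: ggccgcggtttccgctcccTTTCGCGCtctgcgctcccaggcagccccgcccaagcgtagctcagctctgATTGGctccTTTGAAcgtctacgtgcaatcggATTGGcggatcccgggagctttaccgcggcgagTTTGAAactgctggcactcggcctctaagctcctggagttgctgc
Ccnb2, chr9:70421525-70421704, minus strand: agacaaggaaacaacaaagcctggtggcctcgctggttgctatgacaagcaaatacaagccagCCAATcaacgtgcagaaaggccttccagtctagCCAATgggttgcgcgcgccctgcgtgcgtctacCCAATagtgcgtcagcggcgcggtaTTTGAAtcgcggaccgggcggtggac
Cenpa, chr5:30666736-30666915, plus strand: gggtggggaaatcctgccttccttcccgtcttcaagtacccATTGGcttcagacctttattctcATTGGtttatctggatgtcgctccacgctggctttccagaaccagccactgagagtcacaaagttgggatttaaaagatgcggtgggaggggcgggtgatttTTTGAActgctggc
In Mcm6 the capitals are E2F letters and CCAAT on the other strand (ATTGG). In Rrm1 they are a pair of CCAAT stretches around 1 E2F stretch. Ccnb2 carries 3 CCAAT stretches followed by a CHR stretch just after its start. Cdk1, the kinase that starts mitosis, carries an E2F stretch upstream of CCAAT and CHR letters. Cenpa, in mitosis by role, carries CCAAT on the other strand and a CHR stretch after its start, and no E2F letters.

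Day 7 cultures of both genotypes held RNA of every member, mostly at low to middling levels. Levels of different genes are given as CPM per kilobase of exon, where CPM is the read count divided by the TMM-scaled library size. The median over the 47 members was 2.90 CPM per kilobase, against 4.61 for all 16115 genes tested and 163.8 for the 12 macrophage markers. The S phase members had a median of 4.05, and the mitosis members a median of 2.01, on the same scale.

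Among S phase members the highest level per kilobase was that of Pcna, the sliding clamp of the replicative polymerases, at 27.9 to 31.0 over the 6 libraries. Mcm6 (15.7 to 16.9) came next, ahead of Mcm3 (13.6 to 14.2). Cdt1, which loads the MCM helicase at origins, ranged from 9.70 to 15.4 and so overlapped both Mcm3 and its lower neighbour E2f1 (10.8 to 12.6). E2f1 encodes the factor that drives this gene set. The 6 subunits of the MCM helicase ring did not have equal RNA levels: below Mcm6 and Mcm3 came Mcm4 (mean 9.75), Mcm5 (7.00), Mcm2 (4.05) and Mcm7 (3.31). Per kilobase of the longest transcript, Mcm2 stood at 8.06, close to Mcm5 at 8.27, so the places of these subunits depend on the length used. The lowest S phase levels were those of Tyms (0.601 to 0.700), which makes thymidylate, Cdc6 (0.704 to 0.911), a partner of Cdt1 in origin licensing, and Pole (0.888 to 1.09), the leading strand polymerase. Tyms and Cdc6 did not overlap, whereas Cdc6 and Pole did. Per kilobase of the longest transcript the order of Tyms (1.01) and Cdc6 (0.874) was the reverse. Tyms shares near-identical stretches with 31 other genes and Cdc6 with 1, so their low places are uncertain.

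Among mitosis members Top2a (5.62 to 6.93), the topoisomerase that untangles chromosomes, and Mki67 (5.68 to 6.49), which coats mitotic chromosomes and is the common marker of cycling cells, had the highest levels per kilobase and overlapped. Cdk1 followed at 4.61 to 5.46. Per kilobase of the longest transcript, Top2a (10.7) stood well above Mki67 (6.09). The lowest were Cenpf (0.370 to 0.523), a kinetochore protein, Ccnb1 (0.661 to 0.908), the cyclin partner of Cdk1, and Kif23 (0.759 to 0.938), a motor of cytokinesis. Cenpf shares near-identical stretches with 30 other genes and Ccnb1 with 4, so the low places of Cenpf and Ccnb1 are uncertain. With the longest transcript as the length, Kif23 (1.97) moved above Plk1 (1.38) and Ube2c (1.66). The percentile of these genes among all genes tested ran from 16.2 for Cenpf to 56.6 for Top2a.

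The G1 control genes had the highest median level of the 3 roles. Cdkn1a, which encodes the kinase inhibitor p21, stood at 114.7 to 152.6 CPM per kilobase, at the 97.4th percentile of all genes tested. Ccnd1, the cyclin D1 gene, ranged from 32.9 to 36.8, above every S phase and mitosis member in every library, although per kilobase of the longest transcript Pcna had the higher mean level. Cdkn1b, the gene of the kinase inhibitor p27, lay at 8.30 to 9.42, and Ccnd2, the cyclin D2 gene, at 3.85 to 4.38. None of these 4 ranges overlapped another.

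**Figure D1:**
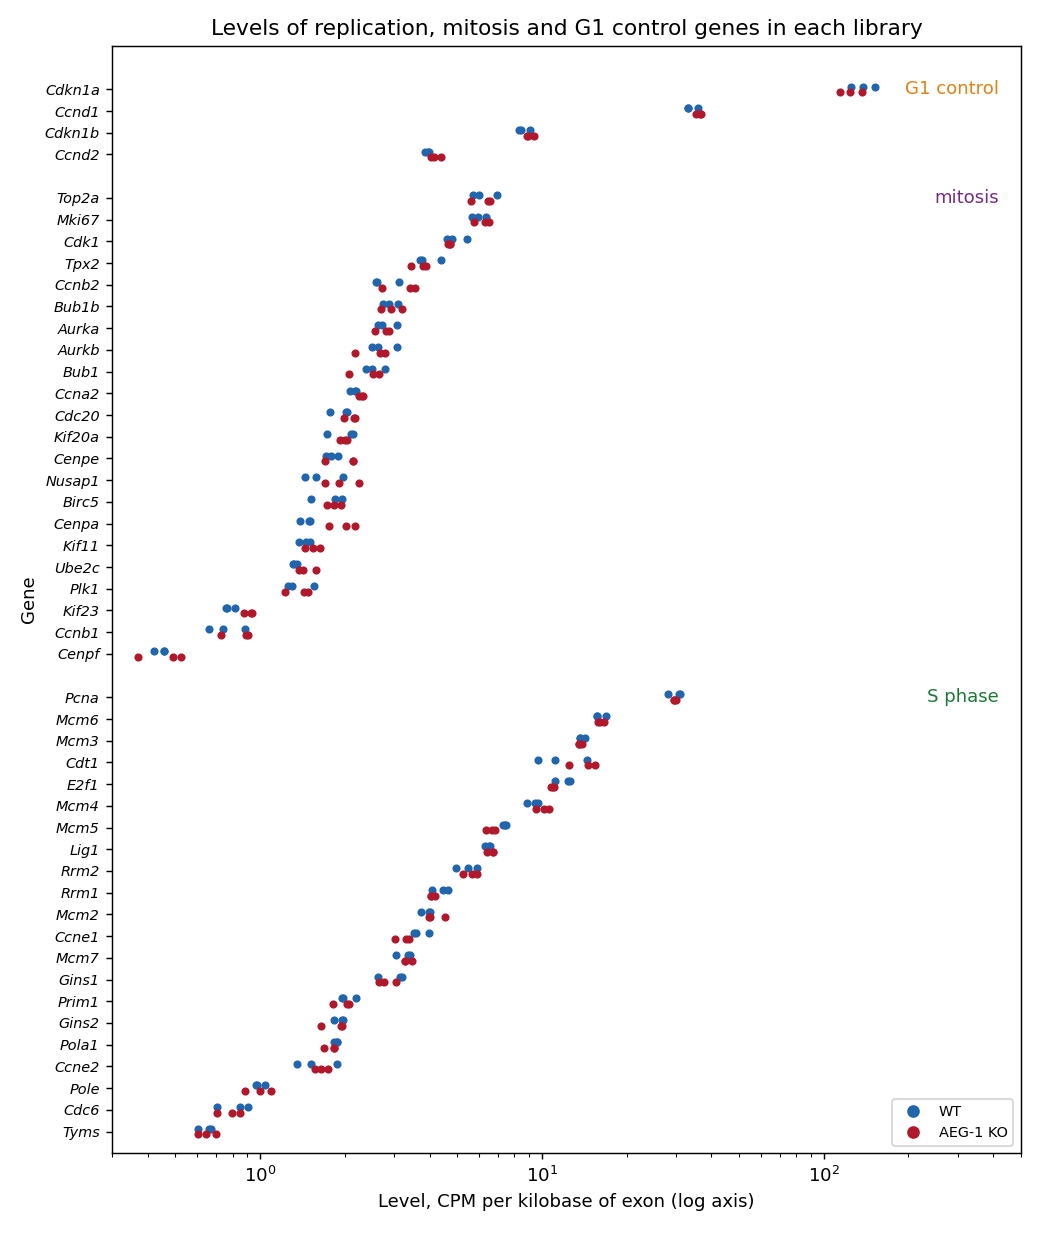
Level of each member in each library in CPM per kilobase of exon (log axis), with WT libraries as blue points and knockout libraries as red points, grouped by role. Cdkn1a lies above 100 in all 6 libraries, whereas the S phase and mitosis genes run from 0.370 to 31.0.

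Setting knockout beside WT asked whether these RNAs differ between macrophages with and without AEG-1. Of the 47 members, 1 rose and 46 passed in neither direction (edgeR quasi-likelihood test over all 16115 genes, Benjamini-Hochberg adjusted p under 0.05). That is 2.13% of the members, against 6.35% of all genes tested, 3.31% in the upward and 3.04% in the downward direction. With an unadjusted p under 0.05 there were 5 members, against 21.6% of all genes. The median log2 fold change was -0.01 for S phase, 0.05 for mitosis and 0.08 for G1 control, against 0.01 for all genes. For 43 of the 47 members the 95% interval of the log2 fold change lay within 0.5 of no change in either direction. The other 4 were Cdt1, Cenpa, Nusap1 and Ccnb2, whose upper bounds were 0.57, 0.63, 0.53 and 0.51. Groups without overlap were found in 8 members, against 26.8% of all genes. Of these, 5 were higher in the knockout (10.6%, against 13.9% of all genes) and 3 were lower (6.4%, against 12.9%). The 3 lower ones were all S phase members (14.3% of that list), where none was higher. Of the 5 higher ones, 4 were mitosis members (18.2% of that list), where none was lower, and 1 was of G1 control.

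**Figure D2:**
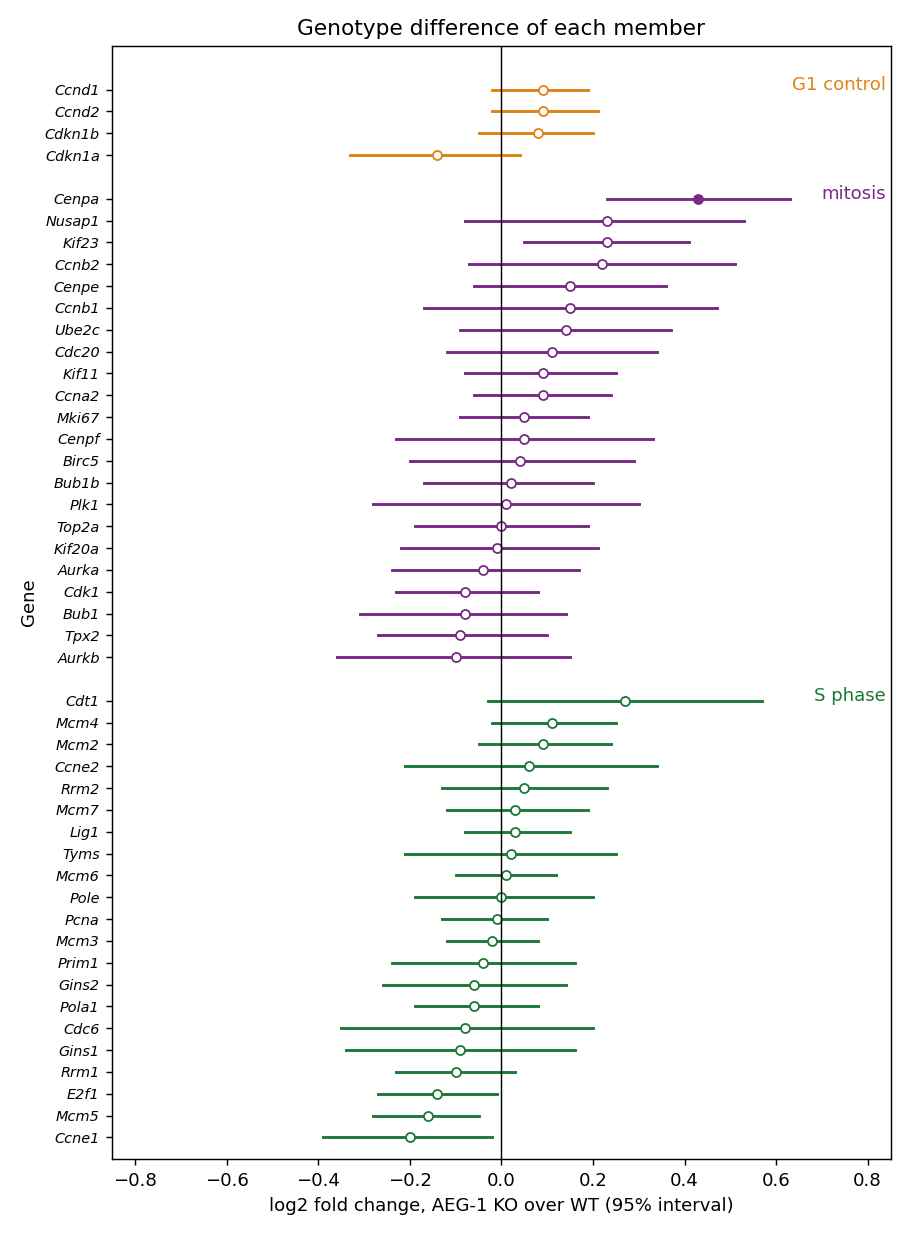
Log2 fold change of knockout over WT for each member (circle) with its 95% interval (line), by role, with a filled circle where the edgeR adjusted p is under 0.05. Cenpa at 0.43 is the filled circle, and 43 of 47 intervals lie between -0.5 and 0.5.

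None of the 21 S phase members was called in either direction with edgeR, against 6.35% of all genes, and DESeq2 called none either. An unadjusted p under 0.05 was found in 3 of the 21, against 21.6% of all genes. Log2 fold changes of the S phase members ran from -0.20 for Ccne1 to 0.27 for Cdt1, with 10 above and 11 below 0. The MCM helicase, the ring that unwinds DNA at the fork, showed how little these RNAs differed. Mcm3 stood at 51.3, 53.3 and 51.5 CPM in WT replicates 1 to 3 and at 51.0, 52.2 and 51.0 CPM in knockout replicates 1 to 3 (log2 fold change -0.02, 95% interval -0.12 to 0.08). Mcm6 stood at 73.4, 73.2 and 78.9 CPM in WT and at 77.5, 75.4 and 74.1 CPM in knockout (0.01, interval -0.10 to 0.12). The knockout values of Mcm6 lay within the WT range, and the genotypes overlapped in Mcm3.

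Mcm2, Mcm4 and Mcm7 overlapped between the genotypes as well. Mcm2 was 27.8, 28.0 and 26.0 CPM in WT and 27.9, 31.5 and 27.8 CPM in knockout. Mcm4 was 31.8, 34.9 and 34.1 CPM in WT and 36.7, 38.1 and 34.3 CPM in knockout. Mcm7, which also shares exons with genes on the other strand, was 15.1, 14.8 and 13.5 CPM in WT and 14.5, 15.4 and 14.5 CPM in knockout. Mcm5 was the MCM gene whose groups stood apart. It was 29.9, 29.6 and 29.1 CPM in WT and 26.6, 25.4 and 27.2 CPM in knockout, each below every WT value (log2 fold change -0.16, SE 0.05, edgeR adjusted p = 0.103). Mcm5 did not pass the test. It also shares near-identical stretches with 18 other genes, so its count is uncertain.

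Genes that act at the fork and supply its substrates were close to equal too. Pcna was 74.3, 73.5 and 67.1 CPM in WT and 71.8, 71.0 and 70.5 CPM in knockout (log2 fold change -0.01, 95% interval -0.13 to 0.10). All 3 knockout values fell within the WT range. Rrm2, the regulated subunit of ribonucleotide reductase, was 13.8, 15.2 and 16.3 CPM in WT and 16.4, 15.7 and 14.6 CPM in knockout (0.05, interval -0.13 to 0.23). Its partner Rrm1 had a log2 fold change of -0.10 and Tyms one of 0.02. The polymerase and primase genes Pola1, Pole and Prim1, the DNA ligase gene Lig1, and Gins1 and Gins2 of the helicase complex lay between -0.09 and 0.03, with adjusted p from 0.659 to 0.994 (edgeR).

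Regulators of S phase entry were next. Ccne1, the cyclin E1 gene, was 9.53, 10.6 and 9.41 CPM in WT and 8.97, 8.01 and 8.77 CPM in knockout (log2 fold change -0.20, SE 0.08, edgeR adjusted p = 0.189). E2f1 was 39.1, 39.8 and 35.1 CPM in WT and 34.1, 34.6 and 34.9 CPM in knockout (-0.14, SE 0.06, edgeR adjusted p = 0.21). In both genes every knockout library lay below every WT library, in E2f1 by a narrow margin from WT replicate 3, and neither passed the test. Ccne2 and Cdc6, targets of E2F, had log2 fold changes of 0.06 and -0.08.

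Cdt1 had the largest SE of the S phase list. It was 45.3, 34.9 and 30.5 CPM in WT and 39.2, 45.7 and 48.5 CPM in knockout (log2 fold change 0.27, SE 0.13, edgeR adjusted p = 0.282). WT replicate 1 lay among the knockout libraries, and the other WT libraries lay below them all. Without WT replicate 1 the log2 fold change of Cdt1 was 0.43 with an edgeR adjusted p of 0.0243, so that 1 library decides the call.

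Of the 22 mitosis members, 1 rose (4.55%, against 6.35% of all genes called) and 21 passed in neither direction. Their log2 fold changes were above 0 in 15 and below 0 in 7, against 8559 above and 7556 below over all genes tested. The gene that rose was Cenpa, which encodes the histone H3 variant that marks centromeres. Cenpa (ENSMUSG00000029177, GRCm38 chr5:30666777-30674830, plus strand) was counted 394, 512 and 352 times in WT replicates 1 to 3, against 465, 503 and 567 times in the knockout replicates. Scaled to library size these were 8.82, 8.75 and 8.14 CPM in WT and 10.3, 11.8 and 12.7 CPM in knockout. All 3 knockout libraries lay above all 3 WT libraries. The mean rose from 8.57 ± 0.374 to 11.6 ± 1.18 CPM (SD, n = 3), 0.43 ± 0.09 on the log2 scale (SE; edgeR adjusted p = 0.0216), or 1.35-fold with a 95% interval of 1.18 to 1.55. The call was lost without WT replicate 2 (edgeR adjusted p = 0.077), knockout replicate 2 (0.093) or knockout replicate 3 (0.0716), while the log2 fold change stayed between 0.36 and 0.51. The longest annotated transcript of Cenpa holds a stretch that 93 other genes share at 95% identity or more, and its principal transcript holds none, so reads of Cenpa and of those genes cannot be fully told apart.

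Other centromere and kinetochore genes did not pass the test. Cenpe, the kinetochore motor gene, was 14.8, 15.4 and 16.3 CPM in WT and 18.4, 18.5 and 14.7 CPM in knockout (log2 fold change 0.15, 95% interval -0.06 to 0.36), with knockout replicate 3 below all WT libraries. Cenpf had a log2 fold change of 0.05. The spindle checkpoint kinase genes Bub1 and Bub1b had log2 fold changes of -0.08 and 0.02. Birc5 and Aurkb encode survivin and its kinase partner in the chromosomal passenger complex. Aurkb was 9.0, 7.76 and 7.38 CPM in WT and 6.41, 7.87 and 8.17 CPM in knockout (-0.10, interval -0.36 to 0.15). Birc5 was 5.17, 6.29 and 6.68 CPM in WT and 6.59, 5.89 and 6.23 CPM in knockout (0.04, interval -0.20 to 0.29). The genotypes overlapped in both.

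The markers most used to count cycling cells were alike in level. Mki67 was 57.1, 59.7 and 63.9 CPM in WT and 63.5, 65.3 and 58.0 CPM in knockout (log2 fold change 0.05, 95% interval -0.09 to 0.19). Top2a was 51.5, 54.0 and 62.4 CPM in WT and 58.1, 59.0 and 50.6 CPM in knockout (0.00, interval -0.19 to 0.19). The genotypes overlapped in both. Cdk1 was 22.8, 23.8 and 26.9 CPM in WT and 23.4, 23.0 and 23.3 CPM in knockout (-0.08, interval -0.23 to 0.08), with the knockout values inside the WT range.

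The cyclin partners of Cdk1 had positive values and no call. Ccnb1 was 3.13, 2.79 and 3.75 CPM in WT and 3.77, 3.83 and 3.06 CPM in knockout (log2 fold change 0.15, 95% interval -0.17 to 0.47). Ccnb2 had a log2 fold change of 0.22 (interval -0.07 to 0.51) and Ccna2 one of 0.09 (interval -0.06 to 0.24). Of these, Ccna2 alone had all knockout libraries (9.17 to 9.49 CPM) above all WT libraries (8.50 to 8.95 CPM). The mitotic kinase genes Plk1 and Aurka were near 0. Plk1 was 3.42, 2.77 and 2.87 CPM in WT and 2.71, 3.26 and 3.15 CPM in knockout (0.01, interval -0.28 to 0.30), and Aurka had a log2 fold change of -0.04 (interval -0.24 to 0.17).

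Spindle and mitotic exit genes were mixed. Kif23 was 6.02, 6.00 and 6.47 CPM in WT and 7.32, 6.93 and 7.41 CPM in knockout (log2 fold change 0.23, SE 0.08, edgeR adjusted p = 0.129), without overlap and without passing the test. The motor genes Kif11 and Kif20a had log2 fold changes of 0.09 and -0.01. The microtubule proteins Tpx2 and Nusap1 had values of -0.09 and 0.23, the latter with a 95% interval of -0.08 to 0.53. Cdc20, which activates the anaphase promoting complex, was 3.80, 3.78 and 3.31 CPM in WT and 3.73, 4.06 and 4.02 CPM in knockout (0.11, interval -0.12 to 0.34). Ube2c, the ubiquitin carrier of that complex, was higher in every knockout library (3.57 to 4.13 CPM) than in every WT library (3.40 to 3.51 CPM), with a log2 fold change of 0.14 and an edgeR adjusted p of 0.473.

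None of the 4 G1 control genes was called with edgeR or DESeq2, against 6.35% of all genes with edgeR. None had an unadjusted p under 0.05, against 21.6% of all genes. Ccnd1, which CSF1 signalling induces, was 168.9, 156.2 and 155.1 CPM in WT and 166.0, 171.0 and 173.3 CPM in knockout (log2 fold change 0.09, 95% interval -0.02 to 0.19). WT replicate 1 lay among the knockout libraries. Ccnd2 was 37.6, 36.3 and 37.1 CPM in WT and 41.2, 39.0 and 38.0 CPM in knockout (0.09, interval -0.02 to 0.21), with no overlap. The inhibitor genes did not pass either. Cdkn1a was 542.2, 489.6 and 445.9 CPM in WT and 407.6, 441.7 and 487.7 CPM in knockout (-0.14, interval -0.33 to 0.04). Knockout replicate 3 lay above WT replicate 3 only, and the other knockout libraries lay below every WT library. Cdkn1b was 41.5, 38.5 and 37.8 CPM in WT and 40.7, 40.5 and 42.9 CPM in knockout (0.08, interval -0.05 to 0.20).

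Summed over the list, S phase RNA was nearly the same in the 6 libraries and mitosis RNA less so. The S phase sum was 542.2, 545.8 and 534.8 CPM in WT replicates 1 to 3 and 539.3, 548.2 and 537.0 CPM in knockout replicates 1 to 3. The mitosis sum was 277.9, 290.1 and 312.7 CPM in WT and 307.6, 314.4 and 284.9 CPM in knockout. Mitosis RNA was therefore 51.3%, 53.1% and 58.5% of S phase RNA in the WT libraries and 57.0%, 57.3% and 53% in the knockout libraries. WT replicate 3 and knockout replicates 1 and 2 were high and the other 3 libraries low, so the libraries did not divide by genotype.

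**Figure D3:**
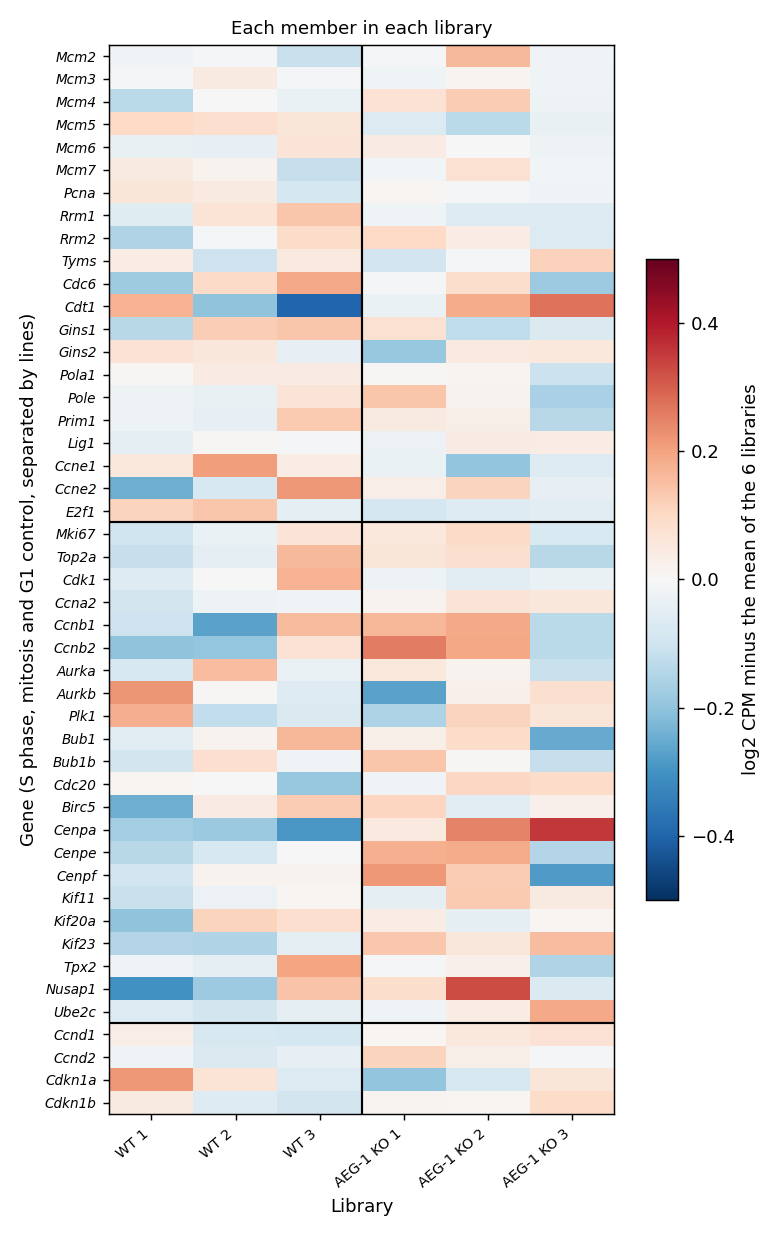
Log2 CPM of each member in each library after subtraction of its mean over the 6 libraries (colour scale), with lines between S phase, mitosis and G1 control and between WT and knockout. Cenpa changes colour at the genotype line, whereas Cdt1 and Nusap1 also vary among the WT libraries.

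Libraries of 1 genotype also differed from each other. The range over the 3 WT libraries had a median of 0.17 on the log2 scale over the 47 members, and 0.19 over all genes tested with reads in every library. Of the 22 mitosis members, 15 were highest of the WT libraries in WT replicate 3 and 14 were lowest in WT replicate 1. The gap between these libraries followed the GC content of the transcripts. Cdt1 (57.8% GC) had a log2 ratio of WT replicate 3 over WT replicate 1 of -0.57, and Ccne2 (36.3% GC) and Nusap1 (41.8% GC) had ratios of 0.46 and 0.45. Over the 47 members Pearson's r of this ratio with GC content was -0.67 (Spearman's rho -0.61). Over 16052 tested genes it was -0.42 (rho -0.53), so the relation was not confined to the cell cycle genes. These points share their libraries and their read depth. For each library's deviation from the mean of the 6 libraries, r with GC content over the members was 0.59, 0.20 and -0.57 in WT replicates 1 to 3. It was -0.47, -0.22 and 0.41 in knockout replicates 1 to 3. The libraries with negative r were those with the higher mitosis RNA relative to S phase RNA. Whether GC content accounts for that difference was not tested. For the knockout mean over the WT mean the relation was weak, with r of -0.11 over the members and -0.03 over all genes. With a smooth trend on length and GC content removed, the log2 fold change of Cenpa was 0.41 (edgeR adjusted p = 0.00914).

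**Figure D4:**
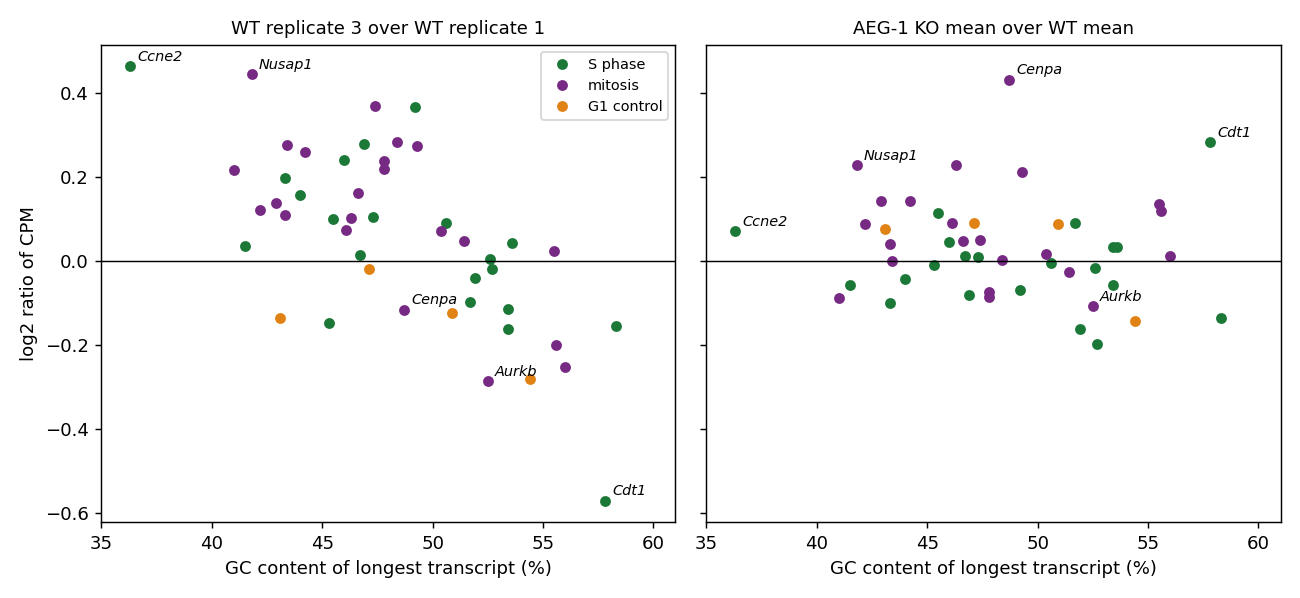
Log2 ratio of CPM against the GC content of the longest transcript (percent) for the 47 members, for WT replicate 3 over WT replicate 1 (left) and for the knockout mean over the WT mean (right). The left points slope downward from Ccne2 at 0.46 to Cdt1 at -0.57, and the right points show no such slope, with r of -0.67 and -0.11.

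Further genes of the same processes behaved alike. Of 45 other replication genes, such as origin recognition, clamp loader and chromatin assembly genes, none was called with edgeR, against 6.35% of all genes. Of the 45, 3 had an unadjusted p under 0.05, against 21.6% of all genes. Log2 fold changes were above 0 in 16 of the 45 genes and below 0 in 29 (median -0.04). Those with the smallest p were Mcm10, which activates the helicase (9.03 ± 0.516 CPM in WT and 7.42 ± 0.245 CPM in knockout, SD, n = 3; edgeR adjusted p = 0.065), and Rpa1, of the single strand binding complex (edgeR adjusted p = 0.223). Of 57 other mitosis genes, 35 had log2 fold changes above 0 and 22 below (median 0.04). At an unadjusted p under 0.05 there were 6, against 21.6% of all genes. Of the 57, 1 rose (1.75%, against 6.35% of all genes called) and none fell. This was Hmgb2, a chromatin protein gene, from 34.0 ± 1.44 to 39.4 ± 0.834 CPM (log2 fold change 0.21, edgeR adjusted p = 0.0463), whose call was lost without each library in turn (edgeR adjusted p from 0.0672 to 0.211).

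Of 28 tested G1 control genes beyond the 4 members, none was called with edgeR, against 6.35% of all genes. An unadjusted p under 0.05 was found in 4, against 21.6% of all genes. The median log2 fold change was -0.03. Cdk6, a kinase partner of D-type cyclins, was 61.3 ± 2.40 CPM in WT and 71.5 ± 4.51 CPM in knockout (edgeR adjusted p = 0.0557), and E2f2 had an edgeR adjusted p of 0.1. Since Cdkn1a is a target of p53, a list of 20 genes was read too, made of p53 target genes and Trp53, the gene of p53 itself. Of the 19 tested, 1 rose and 1 fell, 10.53% against 6.35% of all genes (median log2 fold change -0.06). At an unadjusted p under 0.05 there were 9 of the 19, against 21.6% of all genes. The groups did not overlap in 3 that were higher in the knockout (15.8%, against 13.9% of all genes). Another 5 were lower in the knockout without overlap (26.3%, against 12.9% of all genes). Trp53inp1 rose, with a log2 value of 0.28 (edgeR adjusted p = 0.0395) and Zmat3 fell, with a log2 value of -0.21 (edgeR adjusted p = 0.0184). Zmat3 lost its call without WT replicate 2 or any of the knockout libraries (edgeR adjusted p from 0.0599 to 0.0928). Trp53inp1 kept its call without WT replicate 3 and lost it without any other library (edgeR adjusted p from 0.0645 to 0.196).

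The libraries carried the labelled cell type. The 12 macrophage markers, led by Ctsb, Lyz2 and Adgre1, summed to 28706.5 to 29716.3 CPM in WT and to 30681.8 to 31171.0 CPM in the knockout, without overlap. Of these markers 5 rose and 1 fell, 50% against 6.35% of all genes. Csf1r, the receptor of CSF1, rose (log2 value 0.38, edgeR adjusted p = 0.000919), as did Mertk (0.39), Cd14 (0.35), Mrc1 (0.42) and Ctsb (0.18), and Adgre1 fell (-0.19). Cycling cells could also be precursors, so markers of other marrow cells were read beside the members. Of 10 granulocyte and monocyte progenitor markers, led by Cd34, Myb and Prtn3, none of the 5 tested was called, and the sums were 8.15 to 9.20 CPM in WT and 9.34 to 10.8 CPM in knockout. Log2 values were above 0 in 3 of the 5 and below 0 in 2. Prtn3, a granule protease gene, had a log2 value of 0.85 with every knockout library above every WT library (edgeR adjusted p = 0.0784), and Cd34 one of 0.45 (edgeR adjusted p = 0.0926). Myb went the other way, at -0.25 with every knockout library below every WT library (edgeR adjusted p = 0.253), as did Gfi1 at -0.30 (edgeR adjusted p = 0.553). Elane, another granule protease gene, had 2, 5 and 3 reads in the WT libraries, against 17, 9 and 8 in the knockout libraries, and was below the filter. Ctsg and Ms4a3 had 0 to 5 reads per library. Of 7 monocyte markers 4 rose (57.14%, against 6.35% of all genes). Their sums were 96.3 to 103.5 CPM in WT and 117.5 to 124.8 CPM in knockout. The most abundant were Cx3cr1, F13a1 and Ccr2. Cx3cr1 was not called and was lower in every knockout library than in every WT library (log2 value -0.17). Of 10 neutrophil markers 6 rose and 1 fell (70%), with sums of 196.7 to 224.1 and 248.9 to 293.8 CPM. The most abundant were Lcn2, S100a9 and Mmp8, and Lcn2 was the 1 that fell (-0.34, edgeR adjusted p = 0.0129). Of 7 tested fibroblast and stromal markers 3 rose (42.86%), with sums of 9.18 to 11.4 and 13.3 to 15.2 CPM. Acta2, the most abundant ahead of Col3a1 and Col1a2, was not called (edgeR adjusted p = 0.989). The part of these other marrow cells in the level of the cell cycle genes was not tested.

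Markers of other lineages were mixed in level. Endothelial markers, led by Vwf, Cdh5 and Kdr, summed to 11.2 to 12.4 CPM in WT and 13.4 to 15.5 CPM in knockout, without overlap. Dendritic cell markers, led by Itgax, Siglech and Xcr1, summed to 13.9 to 15.3 CPM in WT and 14.0 to 15.6 CPM in knockout. Neither list held a call. Megakaryocyte markers (64.3 to 74.4 CPM in WT and 98.4 to 105.2 CPM in knockout) were nearly all Pf4, which rose (edgeR adjusted p = 0.00128) and stood at 112.7 CPM per kilobase. Gp9 of that list was lower in every knockout library than in every WT library (log2 value -0.74, edgeR adjusted p = 0.133). B cell markers (36.2 to 41.8 CPM) were nearly all Cd79b, at 24.8 CPM per kilobase. Pax5 rose (edgeR adjusted p = 0.00356) but was near the floor, at 0.0961 CPM per kilobase and the 3.6th percentile of all genes tested. Erythroid, mast cell and T or NK cell markers each summed to under 1 CPM in every library, with the mast cell genes Mcpt8 and Tpsb2 at 0 in all 6.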

How the data were processed

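Total RNA of the 6 cultures went into Illumina TruSeq libraries for HiSeq sequencing, as the labels' protocols state. The authors deposited raw read counts per Ensembl gene, 1 column per library. The submitters' processing notes list featureCounts 1.4.6-p4, Subread, cutadapt 1.9, edgeR 3.18.1 and FastQC 0.11.2, and the build names GRCm38 and mm10. No source used here gives the strand setting, the annotation release or how multi-mapped reads were treated. The table does not show strand, so 14 members with exons on those of an opposite-strand gene are uncertain: Ccna2, Ccnd1, Ccnd2, Ccne2, Cdc20, Cdkn1a, Gins2, Kif20a, Lig1, Mcm7, Nusap1, Plk1, Pole and Ube2c. Another source of doubt is near-identical stretches (BLAST+ 2.17.0, at least 95% identity over 100 bases) shared with other genes by the principal transcripts of 12 members: Ccnb1, Cdc6, Cenpe, Cenpf, Kif11, Mcm5, Mcm7, Mki67, Pcna, Rrm2, Tyms and Ube2c.

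Genes passing filterByExpr at a minimum count of 10 were tested on TMM-scaled libraries with edgeR 4.0.16 in R 4.3.3 (glmQLFit with legacy set to false), genotype as the only term, all 6 libraries, adjustment over 16115 genes. Intervals use the moderated degrees of freedom. Positions and lengths are from GENCODE mouse release 21, which matched 46488 of 46983 identifiers. The fit was tested on simulated data. Members, roles and further lists were chosen with earlier results of these data known. All members are named, with, of each further list, called genes or else the 2 with the smallest p, and the 3 most abundant of each marker list. Alternatives were RLE, upper-quartile and no scaling, no filter and a minimum count of 50, DESeq2 1.42.0, limma-voom (limma 3.58.1), a legacy fit, the replicate number as a block, an adjusted p of 0.01, a length and GC trend removed (mgcv 1.9.3), and leaving out each library. Libraries of a genotype differed by 5.58 to 19.3 times the chi-square expected from sampling per degree of freedom, so none was a duplicate.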

Additional observations from a re-analysis of the deposited data

How the results depend on the processing

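The log2 fold changes of the 47 members ranged from -0.24 to 0.51 over 16 alternatives. Of these 752 values, 746 kept their side of the threshold, 4 lost a call (all Cenpa) and 2 gained one. In 18 members that were never called under the alternative concerned, 50 values changed sign, none beyond 0.08 from 0. The number of genes called was 1023. It was 2323 with the length and GC trend removed, 393 at an adjusted p of 0.01, and 380 to 1094 without 1 library each, with 441 without WT replicate 2, 380 without AEG-1 KO replicate 2, 667 without AEG-1 KO replicate 1 and 606 without AEG-1 KO replicate 3. S phase calls were 0, and 1 with the length and GC trend removed (Mcm5, log2 fold change -0.18, edgeR adjusted p = 0.0195); they were 0 to 1 without 1 library each. Mitosis calls were 1, 0 at an adjusted p of 0.01, and 0 to 1 without 1 library each. Among the further genes, Hmgb2 also lost its call with RLE, upper-quartile and no scaling factors, without the filter and with the trend removed (edgeR adjusted p from 0.0528 to 0.133), and Trp53inp1 with upper-quartile factors (edgeR adjusted p = 0.0507). The cause of these changes was not tested.

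With the replicate number as a block, 227 genes, 0 mitosis members and 0 S phase members were called, and Cenpa had a log2 value of 0.43 (edgeR adjusted p = 0.131). Hmgb2, Zmat3 and Trp53inp1 had adjusted p of 0.209, 0.171 and 0.161. Deviations of same-numbered WT and AEG-1 KO libraries correlated at -0.274, -0.173 and -0.251, so no pairing by number was seen. The GC trend between libraries also enters these deviations, so whether equal numbers mark a pair cannot be told. The share of calls that were higher in AEG-1 KO was 52.1%, and 42.8% to 52.7% over the other settings. The median level of the members was 2.90 CPM per kilobase of exon and 3.68 per kilobase of the longest transcript. In the 150 bases of each promoter window nearest the gene, E2F letters were in 0.0% of mitosis promoters and 37.5% of S phase promoters, and CHR letters in 77.8% of mitosis promoters. Plk1, with 122 to 162 reads per library, had an SE of 0.13 on the log2 scale, against 0.05 for Pcna with 2900 to 4302 reads. Cdt1, with 1317 to 2173 reads, also had an SE of 0.13. The part of depth in these values was not tested.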
